A study of Mus musculus with 2 samples.

Results

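The genes that encode the SR proteins, the hnRNP proteins and the core subunits of the early spliceosome were examined for open chromatin in mouse CFU-E cells. They were all protein-coding genes of GENCODE M21 whose symbols begin with Srsf, Hnrnp, Sf3a, Sf3b, Snrp or U2af, which gave 55 of 21911 protein-coding genes. There were 11 Srsf, 20 Hnrnp, 3 Sf3a, 6 Sf3b, 12 Snrp and 3 U2af genes. The other 21856 protein-coding genes served for comparison.

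ATAC-seq reads out open chromatin with a transposase, Tn5, that cuts and tags DNA between nucleosomes. The cells were CFU-E, erythropoietin-dependent progenitors committed to red cells, obtained as primary cells of the C57BL/6J strain from adult males aged 5 to 6 weeks. There was 1 group of 2 libraries, each from 50000 cells and labelled biological replicates 1 and 2, which came from separate biosamples with the same donor identifier. No treatment, mutation or second cell type was part of the design, so members are set against other genes and not against another condition.

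Removal of introns begins when small nuclear ribonucleoproteins (snRNPs) and helper proteins mark the splice sites. U2AF binds the end of the intron and helps to recruit the U2 snRNP, whose SF3A and SF3B complexes hold the branch point. Most snRNPs are built on a ring of Sm proteins encoded by several Snrp genes. SR proteins mostly promote, and hnRNP proteins often restrain, the use of nearby splice sites, and in erythroid progenitors the choice of exons changes widely as the cells mature.

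The values come from lists of peaks called by the authors. The main list pooled both libraries and was thresholded on the irreproducible discovery rate (IDR), a measure of how well peaks repeat between a pair of peak sets. It held 50003 records, which merged into 24394 regions. The thresholded lists of replicate 1 and replicate 2 merged into 18685 and 17854 regions. A gene had a promoter region when a merged region overlapped the 1 kb to either side of any of its annotated transcription starts. The fold enrichment of a region is the authors' linear ratio over the peak caller's local background, used here to describe and rank regions within a list. The read depth of the libraries is unknown from these lists, and intervals cover counting over genes only. Each of the authors' ranked lists compares a pair of peak sets, and no column names their samples. The list holding 100% of the records of the authors' conservative list was taken to compare the replicates. The list holding 100% of the main list's records was taken to compare a split of the pooled reads. Log2 ratios of the −log10 p of matched peaks had an SD of 0.63 (median 0.128, n = 50375) in the former and 0.77 (median 0, n = 50166) in the latter. On that reading the replicates differed by less than the split did, but the SDs come from different records and carry no interval. The replicates were counted as 1 sample, so no SD between samples and no p-value is given. All 11 erythroid marker genes checked, among them Gata1, Klf1, Epor and Alas2, had a promoter region. So did 3 of 23 genes listed as markers of other cell types, which were Lck, Itga2b and Gp9. Kit, listed among the 23 as a stem cell marker, had none.

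Nearly every gene of the splicing set had an open promoter in CFU-E cells. A promoter region was found for 52 of the 55 genes (94.5%, 95% Clopper-Pearson interval 84.9 to 98.9), against 45.7% of other protein-coding genes (9985 of 21856). The same 52 genes had one in replicate 1's own list, against 43.3% of other genes, and in replicate 2's own list, against 42.5% of other genes. All 52 genes were thus in the series list and in both replicates' lists, whereas 91.5% of the other genes of the series list were in both. Every family was covered: 10 of 11 Srsf, 20 of 20 Hnrnp, 3 of 3 Sf3a, 5 of 6 Sf3b, 11 of 12 Snrp and 3 of 3 U2af genes had a promoter region.

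**Figure D1:**
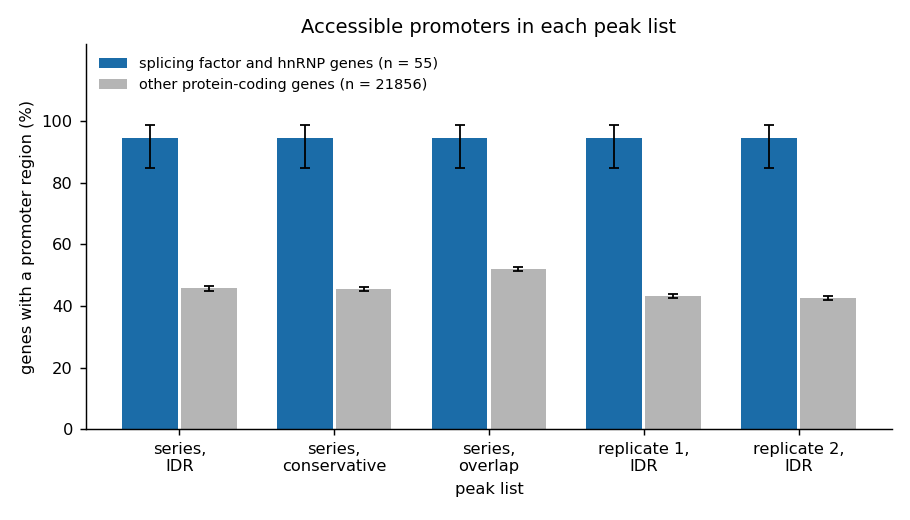
Share of genes with a promoter region (y axis, %) in 5 peak lists (x axis), for the 55 splicing factor and hnRNP genes and the 21856 other protein-coding genes. Bars are shares and error bars 95% Clopper-Pearson intervals; the splicing genes stand at 94.5% in each list, and the other genes between 42.5% and 52.0%.

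Promoters of the genes that the results turn on are shown as RefSeq windows on GRCm38.p6, 250 bases before to 50 after an annotated start, 5′ to 3′ along the gene. A window was matched for 48 of the 55 genes; Hnrnpll, Hnrnpul2, Sf3b4, Sf3b5, Snrpb, Snrpd1 and U2af2 had none. Snrpc has the highest promoter fold of the set (window chr17:27839837-27840136, + strand). Sf3b1 (chr1:55027429-55027728, − strand), Srsf2 (chr11:116853045-116853344, − strand) and U2af1 (chr17:31658715-31659014, − strand) are shown because their human orthologues are recurrently mutated in myelodysplastic syndromes. Srsf10 (chr4:135855821-135856120, + strand) has the lowest fold, and Srsf12 (chr4:33209022-33209321, + strand) is a gene without a promoter region. Capitals mark every match, on either strand, to any of 11 consensus motifs. The letters searched were CCGGAAG for ETS factors, CGCATGCG for NRF1, CCAAT for NF-Y, GGGCGG for SP factors, AAGATGGC for YY1 and CACGTG for the E-box. They were TGACGTCA for the CRE, TTCCCGCC for E2F, AGATAA for the GATA factors, CCACNCCC for KLF factors and TATAAA for the TATA box. Matches to SP can overlap those to E2F, to KLF or to a second SP motif, and runs of capitals join overlapping matches.
Snrpc: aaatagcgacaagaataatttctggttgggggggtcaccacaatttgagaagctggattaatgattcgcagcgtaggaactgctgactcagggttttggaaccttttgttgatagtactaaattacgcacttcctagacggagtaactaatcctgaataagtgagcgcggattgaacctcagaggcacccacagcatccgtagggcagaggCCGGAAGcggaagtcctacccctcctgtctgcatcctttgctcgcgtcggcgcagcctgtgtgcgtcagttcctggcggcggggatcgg
Sf3b1: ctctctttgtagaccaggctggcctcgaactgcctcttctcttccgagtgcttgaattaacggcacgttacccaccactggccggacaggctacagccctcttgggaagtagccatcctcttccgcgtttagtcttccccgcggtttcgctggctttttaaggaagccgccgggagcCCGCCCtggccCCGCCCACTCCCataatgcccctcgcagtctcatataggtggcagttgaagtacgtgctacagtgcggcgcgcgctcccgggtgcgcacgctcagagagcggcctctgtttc
Srsf2: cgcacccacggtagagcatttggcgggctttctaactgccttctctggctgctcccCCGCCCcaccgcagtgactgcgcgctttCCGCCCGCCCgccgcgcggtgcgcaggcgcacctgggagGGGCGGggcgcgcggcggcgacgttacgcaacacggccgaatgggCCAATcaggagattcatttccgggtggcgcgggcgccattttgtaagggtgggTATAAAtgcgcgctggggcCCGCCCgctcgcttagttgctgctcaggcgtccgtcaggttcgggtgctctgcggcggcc
U2af1: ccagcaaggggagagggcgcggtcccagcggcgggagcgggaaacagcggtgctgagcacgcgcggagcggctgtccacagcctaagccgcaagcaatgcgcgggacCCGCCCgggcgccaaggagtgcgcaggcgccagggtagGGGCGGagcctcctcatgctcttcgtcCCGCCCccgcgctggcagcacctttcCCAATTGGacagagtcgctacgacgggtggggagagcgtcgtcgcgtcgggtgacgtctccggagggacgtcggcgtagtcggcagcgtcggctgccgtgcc
Srsf10: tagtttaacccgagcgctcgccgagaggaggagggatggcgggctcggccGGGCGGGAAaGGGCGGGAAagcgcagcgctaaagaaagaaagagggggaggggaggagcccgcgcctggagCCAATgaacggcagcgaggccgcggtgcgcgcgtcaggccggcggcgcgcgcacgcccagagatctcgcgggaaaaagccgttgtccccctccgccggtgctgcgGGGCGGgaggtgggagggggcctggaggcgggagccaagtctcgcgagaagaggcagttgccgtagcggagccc
Srsf12: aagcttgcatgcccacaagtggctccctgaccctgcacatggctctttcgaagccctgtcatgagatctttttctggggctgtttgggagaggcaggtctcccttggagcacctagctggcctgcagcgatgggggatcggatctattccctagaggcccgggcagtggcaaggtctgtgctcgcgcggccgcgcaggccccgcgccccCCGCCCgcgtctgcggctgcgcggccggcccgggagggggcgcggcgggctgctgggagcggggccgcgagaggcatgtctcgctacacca
The single match in the Snrpc window is an ETS motif at −39 bp from the start, counted from the start to the leftmost base of the match. The Sf3b1 window holds 2 SP matches, and the nearer to the start, at −62 bp, overlaps a KLF match at −58 bp. Srsf2 holds an NF-Y match at −82 bp, a TATA box at −29 bp and 5 SP matches. In U2af1 a pair of NF-Y matches on opposite strands overlap, at −52 and −49 bp, beside 3 SP matches. Srsf10 has an NF-Y match, 3 SP matches and 2 E2F matches that overlap the SP ones, and Srsf12 has 1 SP match.

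The 3 genes without a promoter region in the series list had none in either replicate's list, in the conservative list or in the less strict overlap list. Snrpn encodes an Sm protein related to SmB, is imprinted and is known chiefly from brain. Its RefSeq window, set at 1 of its 6 RefSeq starts, had a ratio of observed to expected CpG of 0.132. The ratio was measured in that window only. No region lay within 1 kb of any of its RefSeq starts either. Srsf12, a little-studied SR-like protein known as a splicing repressor, had a CpG ratio of 0.73. No distal region was assigned to Snrpn or to Srsf12.

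Sf3b5, the smallest subunit of SF3B, had no region at its GENCODE start but a strong one at its RefSeq start. The GENCODE start lies at position 13005343 on chromosome 10 (+ strand, mm10) and the RefSeq start at 13008450, 3107 bp downstream. The region chr10:13007928-13009128 (1201 bp) covers the RefSeq start, with its summit at −54 bp from it. Its fold was 16.0 in the series list, above 94.6% of the other genes' promoter regions, and it was 15.18 in replicate 1's list and 15.02 in replicate 2's list. With RefSeq starts in place of GENCODE starts, an alternative chosen after the data were seen, 53 of the 55 genes had a promoter region, against 9779 of 21718 other genes (45.0%). The same difference in annotation applied to 129 other genes, which had a region at a RefSeq start and none at a GENCODE start.

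By fold, the open promoters of the splicing genes had a median close to that of other genes, while by the authors' −log10 p their median was higher. The median fold of a gene's strongest promoter region was 10.2 (95% interval of the median 9.38 to 10.8, range 4.51 to 16.8, n = 52), against 10.7 in other genes with one (10.6 to 10.8, n = 9985). Above the median of other genes lay 20 of the 52 genes (38.5%), with 10 above their upper quartile and 10 below their lower quartile. The median of each gene's highest −log10 p was 147 (137 to 160), against 129 (127 to 130) in other genes. The order by fold and the order by p differed in single genes: Hnrnpa1 lay above 17.6% of other genes by fold and above 60.8% by −log10 p. Widths differed in the direction of the p-values. The strongest region had a median width of 1051 bp (920 to 1193) against 942 bp in other genes (933 to 950), and it merged 3 or more records in 75% of the splicing genes (39 of 52) against 54.0% of other genes.

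**Figure D2:**
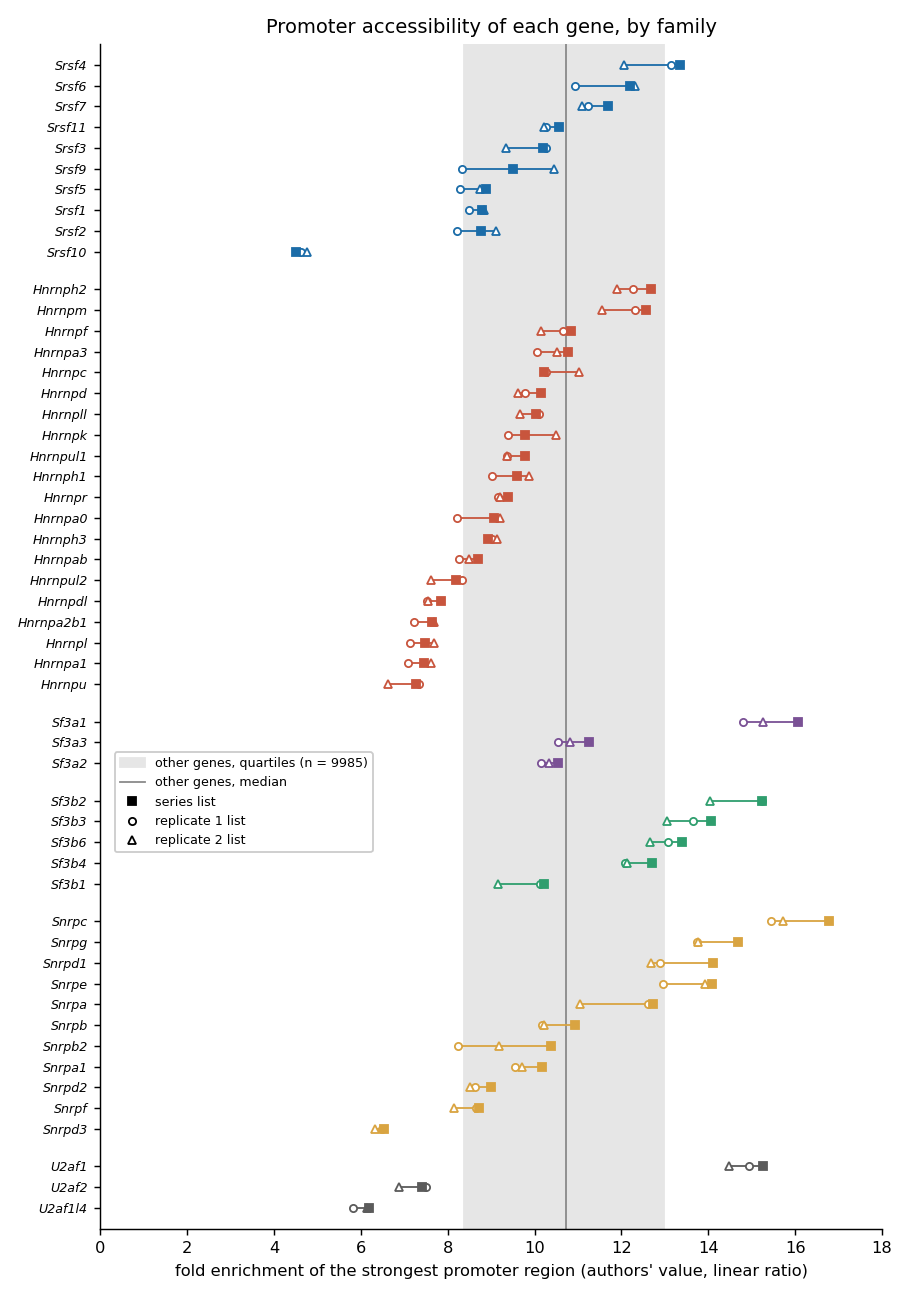
Fold enrichment of the strongest promoter region (x axis, linear ratio) for each of 52 genes (rows), grouped by family. Squares are the series list, circles replicate 1's list and triangles replicate 2's list, each on its own scale; the grey band and line are the quartiles and median of 9985 other genes in the series list. Most SF3B genes lie to the right of the line, and 16 of 20 Hnrnp genes to its left.

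Most genes held a similar rank in both replicates' lists. The median fold of the 52 genes was 9.91 in replicate 1's list and 9.78 in replicate 2's list. The percentile of a gene among other genes' regions differed between the replicates' lists by a median of 4.42 points, against 5.12 points in other genes present in both. The widest gap was in Srsf9, which encodes another SR protein, at 26.6 points: its fold was 8.33 in replicate 1's list and 10.46 in replicate 2's list.

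SR proteins bind exonic enhancers and recruit spliceosome parts through their arginine and serine repeats. Their genes had a median promoter fold of 9.85 (range 4.51 to 13.3, n = 10), and 3 of 10 lay above the median of other genes. Srsf4 led the family in the series list, with 13.3, and in replicate 1's list, with 13.1. In replicate 2's list Srsf6 was higher, with 12.3 against 12.0 for Srsf4. Srsf10, whose product represses splicing when dephosphorylated, was the lowest of all members, at 4.63 in replicate 1's list, 4.76 in replicate 2's list and 4.51 in the series list. Only 1.75% of other genes' promoter regions were lower than that of Srsf10. Srsf2, which also acts in transcription elongation, had folds of 8.22 and 9.11 in the lists of replicates 1 and 2 and 8.77 in the series list. Its region, chr11:116852318-116854256, was the widest of the set at 1939 bp and also covered the start of Mfsd11 on the other strand, 201 bp away. The summit of that region lay at −642 bp from the nearest Srsf2 start. Srsf1, the founding SR protein, had folds of 8.49 and 8.84 in the replicates' lists and 8.78 in the series list.

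The hnRNP genes had the lowest median fold of the larger families, within overlapping intervals, but were the richest in separate promoter regions. Their median fold was 9.48 (8.20 to 10.2, range 7.26 to 12.7, n = 20). The intervals of the Srsf median (8.77 to 12.2) and the Snrp median (8.72 to 14.7) overlapped it. Of the 20 Hnrnp genes, 4 lay above the median of other genes, none above the upper quartile and 6 below the lower quartile. By the median of the highest −log10 p the order differed, with 147 in Hnrnp, 149 in Srsf and 119 in Snrp genes. Hnrnph2, which binds G-rich runs, led by fold in the series list, with 12.7, and in replicate 2's list, with 11.9. In replicate 1's list Hnrnpm was higher, with 12.32 against 12.28 for Hnrnph2. Hnrnpu, a nuclear scaffold protein, was the lowest of the family in the series list, with 7.26, and in replicate 2's list, with 6.62. In replicate 1's list Hnrnpa1 was the lowest, with 7.08 against 7.34 for Hnrnpu. The well-known pair Hnrnpa1 and Hnrnpa2b1, which bind silencer elements, had 7.46 and 7.63 in the series list. Separate promoter regions numbering 2 or more were seen for 13 of 20 Hnrnp genes, 3 of 10 Srsf, 1 of 11 Snrp, 1 of 3 U2af and none of the Sf3a and Sf3b genes. Over the set this made 18 of 52 genes (34.6%), against 25.5% of other genes with a promoter region. The Hnrnp genes had a median of 8 annotated starts, the whole set 5.5 and the other genes 5. In the other families the medians were 9 in U2af, 6.5 in Srsf, 5 in Sf3b, 5 in Snrp and 3 in Sf3a genes. A gene with more starts has a wider area in which to meet a region, and the part of this in the counts was not tested.

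Hnrnpf, another protein of G-rich runs, had 5 promoter regions over 10 starts. The strongest, chr6:117916706-117917444, had a fold of 10.8 and covered 3 starts, the next had 8.85 and covered 4, and the remaining ones had 7.44, 5.70 and 3.80 and covered none. Hnrnpu had 3 regions, with folds of 7.26, 5.58 and 4.47. In Hnrnpab and Hnrnpa0 the strongest region did not cover the annotated start: its summit lay at 852 bp from the Hnrnpab start and at −425 bp from the Hnrnpa0 start. A weaker region did cover each of these starts, with a fold of 7.70 in Hnrnpab and 6.94 in Hnrnpa0.

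The genes of the SF3A and SF3B complexes included many of the highest folds. The 5 Sf3b genes with a promoter region had a median of 13.4 (range 10.2 to 15.2), with 4 of 5 above the median of other genes and 3 above the upper quartile. Sf3b2, which contacts RNA upstream of the branch point, was highest with 15.2 in replicate 1's list, 14.04 in replicate 2's list and 15.2 in the series list. Sf3b3, Sf3b6 and Sf3b4 followed with 14.1, 13.4 and 12.7 in the series list. Sf3b1, the large subunit that encloses the branch adenosine, was the lowest of its family, with 10.1 and 9.15 in the lists of replicates 1 and 2 and 10.2 in the series list. Its region was chr1:55026819-55027833. The 3 Sf3a genes, which link SF3B to the rest of the U2 snRNP, had 16.1 (Sf3a1), 11.2 (Sf3a3) and 10.54 (Sf3a2) in the series list. Sf3a1 was the second highest of all members in the series list and had 14.8 and 15.3 in the replicates' lists.

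Snrp genes, which encode Sm ring proteins and proteins specific to the U1 and U2 snRNPs, had folds from low to the highest of the set. Their median fold was 10.9 (range 6.52 to 16.8, n = 11), with 6 of 11 above the median and 4 above the upper quartile of other genes. Snrpc, a protein of the U1 snRNP, had the highest fold of the set, at 15.4 in replicate 1's list, 15.7 in replicate 2's list and 16.8 in the series list. Its region chr17:27839803-27840496 exceeded 96.8% of other genes' promoter regions. The 7 Sm ring genes with a promoter region ranged widely, with 14.7 for Snrpg, 14.1 for both Snrpd1 and Snrpe, 10.9 for Snrpb, 9.001 for Snrpd2, 8.72 for Snrpf and 6.52 for Snrpd3. Snrpd3 was thus among the lowest of the set although its product sits in the same ring as that of Snrpg; its folds in the replicates' lists were 6.49 and 6.32.

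The U2AF genes held both ends of the scale. U2af1, the subunit that reads the AG at the end of the intron, had 14.9 and 14.5 in the lists of replicates 1 and 2 and 15.3 in the series list, above 91.7% of other genes' regions. Its region was chr17:31658249-31659403. U2af2, the subunit that binds the pyrimidine tract, had 7.50, 6.87 and 7.42 in the same lists. Its strongest region in the series list covered none of its starts, with the summit at −473 bp. A weaker region, with a fold of 5.38 in the series list, covered 6 of its 8 starts. U2af1l4, a paralogue of U2af1, had 5.83 and 6.14 in the lists of replicates 1 and 2. In the series list it had 6.20 and was the second lowest of the set. The annotation also places a start of Gm49396 on the same strand at the same base as one of U2af1l4.

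**Figure D3:**
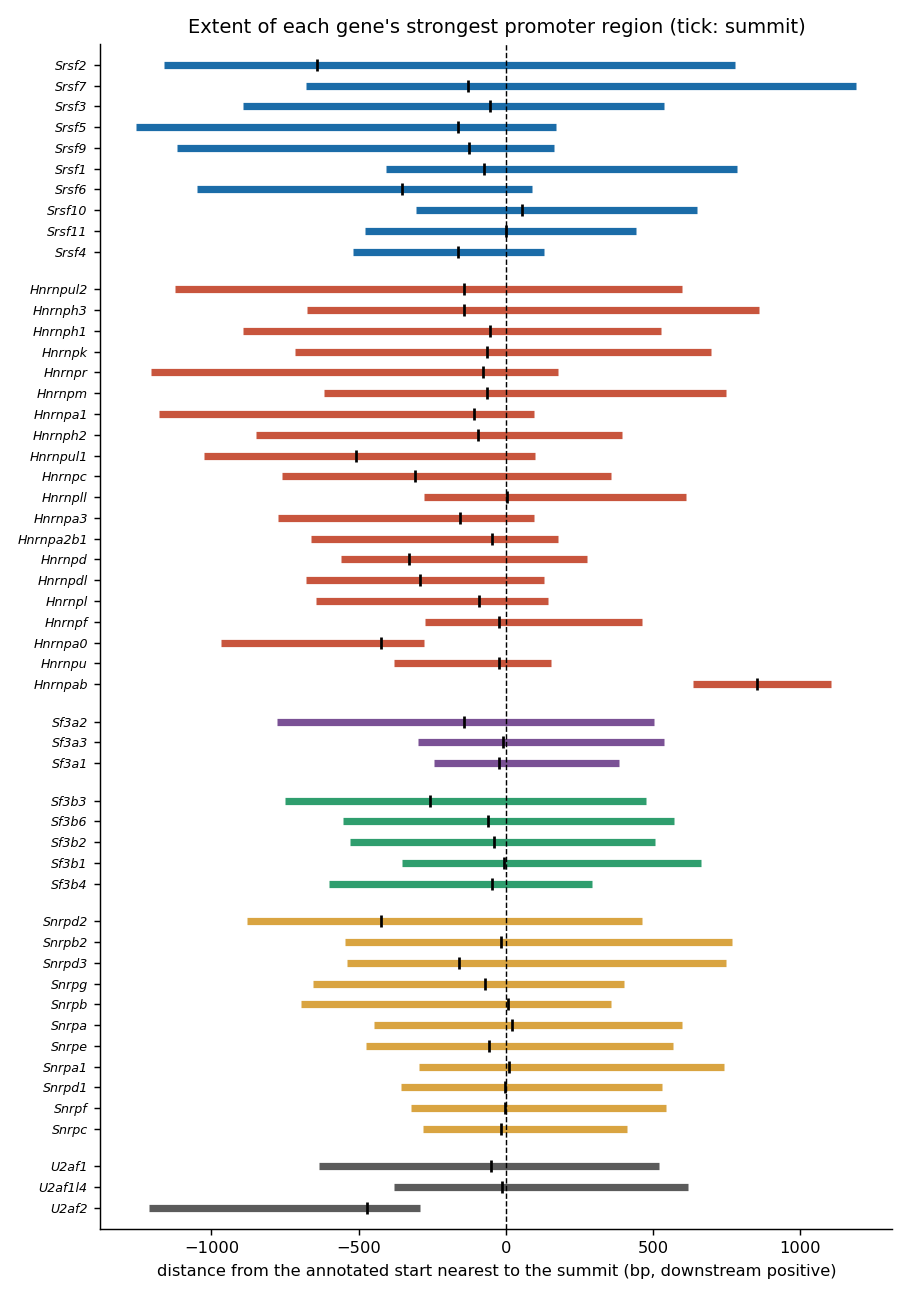
Extent of the strongest promoter region of each of 52 genes (bars) relative to the annotated start nearest to its summit (x axis, bp, downstream positive), with ticks at the summits. The median summit lies 64 bp upstream of the start, and 41 of 52 lie within 200 bp of it; Hnrnpab, Hnrnpa0 and U2af2 are the genes whose strongest region does not reach that start.

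Summits lay mostly just upstream of a start. The median summit was at −64 bp (−124 to −46) in the splicing genes and at −38 bp (−40 to −37) in other genes. It lay within 200 bp of a start in 78.8% of the splicing genes and 81.3% of other genes, and upstream of the start in 86.5% of the splicing genes and 76.4% of other genes.

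Many of the promoters were shared with a neighbour read in the other direction, so that 1 region stood for both genes. A promoter region covered the start of another protein-coding gene on the other strand in 18 of 52 splicing genes (34.6%), against 22.3% of other genes (2223 of 9985). Among the hnRNP genes these pairs were Hnrnpa1 with Cbx5 and Hnrnpa2b1 with Cbx3, both neighbours encoding heterochromatin proteins, and Hnrnpd with 4930524J08Rik, Hnrnpdl with Enoph1, Hnrnph2 with Gla, Hnrnph3 with Pbld2, Hnrnpk with Rmi1 and Hnrnpul2 with Ttc9c. The starts of Hnrnpa1 and Cbx5 lay 616 bp apart and those of Hnrnpa2b1 and Cbx3 466 bp apart. Among the snRNP and U2AF genes the pairs were Sf3a1 with Ccdc157, Sf3a2 with Plekhj1, Sf3b3 with Cog4, Snrpa with BC024978, Snrpd2 with Qpctl, Snrpd3 with Gucd1 and U2af1l4 with Psenen. The closest starts were those of Sf3a2 and Plekhj1, 4 bp apart. The SR genes in such pairs were Srsf2 with Mfsd11, Srsf7 with Ttc39d and Srsf11 with Lrrc40. Genes on the other strand that are not annotated as protein-coding had a start inside a promoter region of Hnrnpf, Hnrnpl, Sf3b2, Sf3b4, Snrpe, Snrpf, Srsf1, Srsf3, Srsf5 and U2af2.

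The promoter windows were rich in CpG, and the share with an open promoter moved with CpG content in other genes. The median ratio of observed to expected CpG was 0.937 in 48 splicing windows, against 0.795 in 7936 windows of other genes with a promoter region and 0.277 in 8538 windows of other genes without one. The GC content was 60.2% in splicing windows and 61% in those of other genes with a promoter region. Among genes whose window had a ratio over 0.6, 44 of 45 splicing genes (97.8%) had a promoter region, against 75.9% of other genes (6210 of 8187). At a ratio of 0.6 or less the counts were 2 of 3 splicing genes and 1726 of 8287 other genes (20.8%). With 3 such windows, the splicing genes cannot show whether their share moves with CpG content. The part of CpG content in the members' share was not tested further.

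ETS matches were spread unevenly over the families. An ETS match stood in 16 of 48 splicing windows (33.3%, interval 20.4 to 48.4), against 21.6% of other genes with a promoter region, 3.49% of those without and 12.2% of all other genes' windows. It was found in all 3 Sf3a windows and in 3 of 4 Sf3b windows (Sf3b2, Sf3b3 and Sf3b6). It was also in 4 of 10 Snrp windows (Snrpb2, Snrpc, Snrpe and Snrpg) and 4 of 11 Srsf windows, but only 2 of 18 Hnrnp and 0 of 2 U2af windows. Splicing genes with an ETS match and a promoter region had a median fold of 12.5 (range 8.89 to 16.8, n = 16), against 9.22 (range 4.51 to 15.3, n = 30) without a match. In other genes the medians were 11.7 with a match (n = 1713) and 10.6 without (n = 6223). Median folds by family were 13.4 in Sf3b, 11.2 in Sf3a, 10.9 in Snrp, 9.85 in Srsf, 9.48 in Hnrnp and 7.42 in U2af genes. Match and family therefore cannot be told apart in the fold of the splicing genes. Around the strongest summit, 100 bp to each side, ETS matches stood in 38.5% of splicing genes (20 of 52) and 19.7% of other genes.

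NF-Y matches were common in hnRNP promoters. They stood in 12 of 18 Hnrnp windows, among them those of Hnrnpa0, Hnrnpa1, Hnrnpa2b1 and Hnrnpa3, and in 4 of 11 Srsf, 4 of 10 Snrp, 2 of 4 Sf3b, 0 of 3 Sf3a and 1 of 2 U2af windows. In all, 47.9% of splicing windows held one, against 40.8% of other genes with a promoter region and 38.7% of all other genes' windows. SP matches were in 68.8% of splicing windows and 67.4% of those of other genes with a promoter region (47.9% of all other windows). E2F matches were in 10.4% of splicing windows (3.47 to 22.7) and 4.61% of those of other genes with a promoter region (2.96% of all other windows). KLF matches were in 10.4% of splicing windows (3.47 to 22.7), against 24.0% of those of other genes with a promoter region (19.8% of all other windows). Around the strongest summits KLF matches were closer, at 15.4% of splicing genes (6.88 to 28.1) and 18.3% of other genes. GATA matches were in 8.33% of splicing windows and 6.00% of those of other genes with a promoter region (9.72% of all other windows).

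**Figure D4:**
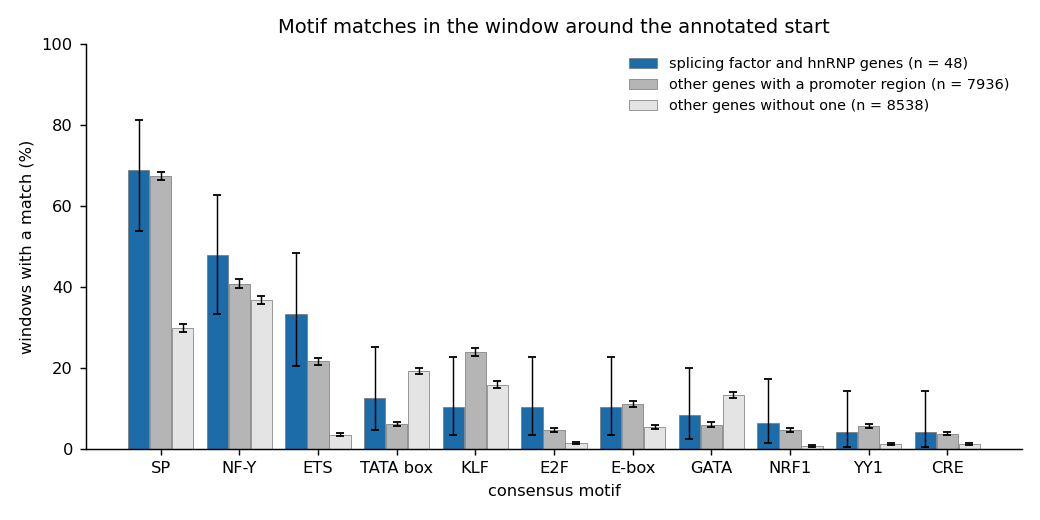
Share of windows with a consensus match on either strand (y axis, %) for 11 motifs (x axis) in splicing factor and hnRNP genes (n = 48), other genes with a promoter region (n = 7936) and other genes without one (n = 8538). Bars are shares and error bars 95% Clopper-Pearson intervals; ETS stands at 33.3%, 21.6% and 3.49% in these groups and KLF at 10.4%, 24.0% and 15.9%.

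TATA boxes stood in 12.5% of splicing windows (4.73 to 25.2), 6.05% of those of other genes with a promoter region and 12.9% of all other windows. Around the strongest summits a TATA box stood in 1.92% of splicing genes and 1.95% of other genes. NRF1 was in 6.25% of splicing windows, 4.71% of those of other genes with a promoter region and 2.65% of all other windows, and YY1 in 4.17%, 5.59% and 3.28% of the same. E-box matches were in 10.4%, 11.0% and 8.10%, and CRE matches in 4.17%, 3.74% and 2.42% of the same.

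A distal region had its midpoint over 1 kb from every annotated start and was given to the protein-coding gene with the nearest start within 100 kb. There were 33 such regions for the 55 genes, and 19 genes (34.5%) had at least 1, against 25.1% of other protein-coding genes. Among genes with a promoter region the order was the reverse, with 34.6% of splicing genes (18 of 52, 22.0 to 49.1) and 38.4% of other genes (3830 of 9985). The median was 0 in the splicing genes and in other genes. A count of 4 or more was reached by 0 of 55 splicing genes and 3.26% of other genes. Splicing genes lay in tighter neighbourhoods, with a median of 30.7 kb nearest to their starts, against 45.2 kb in other genes. Per 100 kb of such sequence there were 1.51 distal regions in all splicing genes and 0.663 in all other genes. Among genes with a promoter region there were 1.65 distal regions in splicing genes and 1.24 in other genes.

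**Figure D5:**
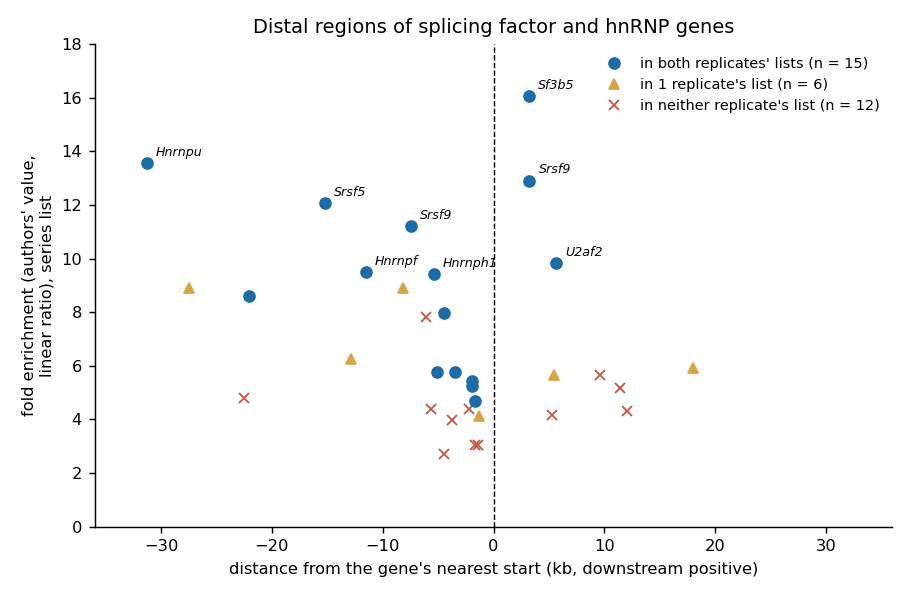
Distance of each of 33 distal regions from the nearest start of its gene (x axis, kb, downstream positive) against its fold enrichment in the series list (y axis, linear ratio). Marks show whether the region was also in both replicates' lists (15), in 1 (6) or in neither (12); the regions in neither all had a fold under 8.

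The distal regions of the splicing genes had lower folds and lay closer to a start than those of other genes. Their median fold was 5.77 and their median width 361 bp, against 6.50 and 437 bp for 11130 distal regions of other genes, and they lay a median of 5.42 kb from the start, against 9.97 kb. Both replicates' lists held 15 of the 33 (45.5%), against 50.2% of other genes' distal regions, while 1 list held 6 and neither held 12. Of the 33, 4 lay within 1 kb of a RefSeq start of the same gene, in Sf3b5, Srsf1, Hnrnpul1 and U2af2. By position, 25 were intergenic, 3 intronic and 5 exonic, a split not made for other genes.

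A count of 2 or more distal regions was reached by 10 of 55 splicing genes (18.2%), against 11.2% of other genes. Hnrnpll, which controls the splicing of Cd45 in lymphocytes, Snrpf, Srsf5 and Srsf10 had 3 each, and Hnrnpf, Sf3a3, Sf3b5, Srsf1, Srsf9 and U2af2 had 2 each. The 3 regions of Srsf10 lay 3.48 to 5.08 kb upstream, with folds of 5.77, 5.77 and 2.71, and the stronger pair exceeded the fold of 4.51 at the Srsf10 promoter itself. None of the 3 regions of Hnrnpll was in both replicates' lists. Apart from the region at the RefSeq start of Sf3b5, the strongest were 1 of Hnrnpu, 31.3 kb upstream with a fold of 13.6, then 1 of Srsf9, 3.24 kb downstream in an exon of Gatc with 12.9, and 1 of Srsf5, 15.2 kb upstream with 12.1. In replicates 1 and 2 the Hnrnpu region had 12.4 and 13.2, the Srsf9 region 12.3 and 11.5, and the Srsf5 region 9.90 and 11.5.

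At the distal summits, no ETS match was found and GATA matches were fewer than around other genes' distal summits, within a wide interval. ETS stood in 0 of 33 distal summit windows of splicing genes, which allows up to 10.6%, against 1.89% of those of other genes. GATA stood in 5 of 33 (15.2%, 5.11 to 31.9), against 26.9% of those of other genes, and SP in 24.2% (11.1 to 42.3) against 12.1%. The bases within 50 bp of a pair of the strongest distal summits are shown from the mm10 genome to compare a CpG-rich with a GATA-bearing one, at chr1:178369023-178369123 for Hnrnpu and chr12:80930316-80930416 for Srsf5 (+ strand of the chromosome), with motif matches in capitals.
Hnrnpu: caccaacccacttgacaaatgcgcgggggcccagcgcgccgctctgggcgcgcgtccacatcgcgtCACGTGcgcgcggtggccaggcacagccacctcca
Srsf5: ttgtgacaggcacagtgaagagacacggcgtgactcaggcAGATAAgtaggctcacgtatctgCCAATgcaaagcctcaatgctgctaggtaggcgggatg
The Hnrnpu summit held an E-box match, and its summit window of 100 bp to each side had a CpG ratio of 0.973. The Srsf5 summit held a GATA and an NF-Y match, and the ratio in its window was 0.49. Both of the Srsf9 distal regions and the distal region in U2af2 with a fold of 9.83 also held a GATA match within 100 bp of the summit.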

How the data were processed

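ATAC-seq peak lists of 2 CFU-E libraries, 1 group, were analysed. The authors made peak lists on mm10 for each replicate and for both together, per the deposited file listing. Aligner, peak caller, versions, Tn5 offsets and duplicate handling were not given in the sources used here. Each deposited record carries a fold enrichment (a ratio over local background), a −log10 p and a score from the IDR (lowest in the series list 540). All were computed by the authors.

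Records that overlapped or touched were merged, and a region took the largest fold of its records. Starts came from GENCODE M21 on GRCm38.p6, which is mm10, with genes joined by symbol. A promoter region needed an overlap of 1 bp with the 1 kb to either side of a start. Shares carry 95% Clopper-Pearson intervals and medians carry order-statistic intervals. Motifs were counted in RefSeq windows, and 48 of 48 member windows were identical to the genome used for summits. Python 3.11.15, NumPy 2.4.6, SciPy 1.17.1, pysam 0.24.0, samtools 1.23.1 and matplotlib 3.10.9 were used, and the assignment of regions to genes was tested on simulated data.

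The members, the gene lists and the motifs were chosen with earlier results of these data known, so no enrichment test was run. The text names members without a promoter region, those that differ between lists, the 3 highest and 3 lowest folds, the highest of each family, the 10 with the most distal regions, members of divergent pairs, and Sf3b1, Srsf2 and U2af1. Other named members, and the differences in ETS and NF-Y matches between families, were chosen after their values were seen. Signal tracks and older lists of replicated peaks were not used here.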

Additional observations from a re-analysis of the deposited data

How the results depend on the processing

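The 52 genes with a promoter region stayed at 52 with windows of 500 bp or 2 kb, the conservative and overlap lists, an IDR of 0.01 or less, basic transcripts and either replicate's list. The number was 45 (81.8%) in the upper 50% of regions by fold, against 37.3% of other genes, and 53 with RefSeq starts, an alternative chosen after seeing the data. The members' median fold and width stayed within their intervals. The exception was strength by −log10 p, another scale: 147 in members, 129 in other genes. The other genes' median fold of 10.7 was 10.1 in the overlap list, 10.9 at the stricter IDR, 11.5 in the upper 50%, and 10.36 to 10.42 with a replicate left out. The members' 33 distal regions became 63 in the overlap list, 13 in the upper 50%, 15 when all annotated genes compete, and 19 with either replicate left out. Their median per gene was 1 in the overlap list. Distal counts of other genes under these settings are not given here, so the changes cannot be called particular to the members. The cause was not tested, except that weaker peaks enter the overlap list. When all genes compete, nearer starts of genes not annotated as protein-coding take regions. In summit windows the TATA share of members was 1.92%, against 12.5% in start windows. No paired analysis was possible because there is only 1 group.

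Peak lists carry no read counts, so depth, weak peaks below the thresholds and differences between the libraries in single genes could not be assessed. Folds of a merged region with several starts cannot be divided between genes. The members are 55 genes of known families, and intervals treat genes as independent.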

Other observations

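Splicing genes outside these families mostly had open promoters too. Of a list of 115 other spliceosome and splicing regulator genes, chosen with earlier results of these data known, 107 (93.0%, 86.8 to 96.9) had a promoter region, against 45.7% of protein-coding genes outside the 6 families, and the median fold of the 107 was 11.4. The highest were Snrnp48 with 18.99, a protein of the minor spliceosome, Prpf8 with 17.8, the large protein at the catalytic core, and Pcbp2 with 17.7, a protein that binds C-rich RNA. The 8 without a promoter region were Celf2, Elavl2, Elavl3, Elavl4, Nova1, Rbfox1, Rbfox2 and Srpk3. Most of these are known chiefly from neurons or muscle, and Celf2 and Elavl2 had a region in the less strict overlap list. Lsm7, with a fold of 3.51, Rbfox3 with 4.06 and Clk3 with 4.57 had the lowest values of the 107. Of the 107, Rbfox3 and Nova2 had no promoter region in either replicate's own list, and Srpk2 had none in replicate 1's list.

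The muscleblind gene Mbnl1, a regulator of alternative splicing, had the most distal regions of either set. It had 5 promoter regions, the strongest with a fold of 6.00, and 11 distal regions, whereas no member of the 6 families had more than 3. Clk3, a kinase of SR proteins, had 6 distal regions and Syf2 had 5. At least 1 distal region was found for 26 of the 115 genes (22.6%), against 25.1% of protein-coding genes outside the 6 families.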
